A study of Homo sapiens with 9 samples.

Results

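The nuclear genes that encode respiratory complexes II to V were followed in LX-2 cells, an established human hepatic stellate cell line, after knockdown of LOX or of LOXL1. Members were chosen by symbol: SDHA, SDHB, SDHC, SDHD, CYC1, and every symbol of the forms UQCR, COX4 to COX8 followed by A, B or C, and ATP5. This gave 45 of the 17123 genes in the deposited table. Complex II has 4 of them, complex III 10, complex IV 12 and complex V 16. The other 3 match by letters only. ATP5S, now DMAC2L, and ATP5SL, now DMAC2, are not ATP synthase subunits, and ATP5J2-PTCD1 is a readthrough transcript that overlaps ATP5J2. The table uses older symbols for ATP synthase genes, so that ATP5A1 is ATP5F1A, ATP5B is ATP5F1B, ATP5C1 is ATP5F1C, ATP5H is ATP5PD, ATP5J is ATP5PF and ATP5O is ATP5PO in current usage. Mitochondrially encoded subunits were not analysed here.

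Complex II, succinate dehydrogenase, oxidises succinate in the TCA cycle and hands the electrons to ubiquinone. Complex III passes them from ubiquinol to cytochrome c, complex IV passes them from cytochrome c to oxygen, and complexes III and IV pump protons as they do so. Complex V, ATP synthase, lets the protons flow back through a rotating ring and makes ATP. Hepatic stellate cells store vitamin A when quiescent and lay down collagen matrix when activated, and the change of state is known to alter their energy metabolism.

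All 9 samples received TGFβ1 at 10 ng/ml, a cytokine that activates stellate cells. They formed 3 groups of 3 libraries: negative control siRNA, LOX siRNA and LOXL1 siRNA. LOX or LOXL1 siRNA was present at 25 nM for 48 hours; the sources used here give no dose for the control siRNA. Both targets code for secreted enzymes through which collagen and elastin become cross-linked. LX-2 is 1 line, and no source states that libraries within a group are separate cultures. The p-values therefore describe only how these libraries vary, which may be technical. The treatment label of control replicate 3 leaves out the word siRNA, and its title placed it in the control group.

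The values were FPKM, sequenced fragments divided by the length of the transcript and by library size. They summed to 384881 to 396088 per library, and 11663 to 11728 genes per library reached 1 FPKM. LOX fell from 46.2 ± 2.94 FPKM (SD, n = 3) in control to 28.4 ± 2.67 with its siRNA, where ± gives the SD of 3 libraries here and below (log2 fold change -0.68, limma adjusted p = 6.73e-04). LOXL1 fell from 12.3 ± 1.11 to 6.80 ± 0.997 FPKM (log2 fold change -0.78, limma adjusted p = 0.00432), a call that was lost when all genes of the table were tested (adjusted p = 0.0632; 0.00457 to 0.0632 over the alternatives). All 10 markers of activated stellate cells reached 1 FPKM in at least 3 libraries, as did 1 of 6 quiescent stellate, 0 of 6 hepatocyte, 0 of 5 endothelial, 2 of 5 epithelial and 4 of 5 macrophage or immune markers. ALB and APOA1 of the hepatocyte list and PECAM1 and CDH5 of the endothelial list stayed below 1 FPKM in all 9 libraries, as did CD163 of the immune list. The immune markers summed to 43.96 to 50.77 FPKM in control, 44.77 to 49.43 with LOX siRNA and 45.02 to 49.18 with LOXL1 siRNA. Their part in the results was not tested.

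Many genes of these complexes are known targets of the factors NRF1 and GABP, an ETS family protein. Promoter windows from RefSeq (GRCh38.p14, 250 bases before to 50 bases after the start) matched 32 of the members. The sequences below are the 180 bases before the RefSeq start of 5 genes whose values are described later, written 5′ to 3′ on the gene's own strand. SDHA and SDHB encode the catalytic pair of complex II, and COX8A, ATP5C1 and ATP5H had p values among the smallest of complexes IV and V in 1 or more comparisons. Capitals mark exact matches, on either strand, to the NRF1 palindrome, which is GCGC, any pair of bases and GCGC again, or to the ETS core CCGGAAG, which reads CTTCCGG on the other strand. The SDHA window is chr5:218140-218319 on the plus strand, that of SDHB chr1:17054033-17054212 on the minus strand and that of COX8A chr11:63974440-63974619 on the plus strand. The ATP5C1 window is chr10:7787997-7788176 on the plus strand and that of ATP5H chr17:75046970-75047149 on the minus strand.
SDHA: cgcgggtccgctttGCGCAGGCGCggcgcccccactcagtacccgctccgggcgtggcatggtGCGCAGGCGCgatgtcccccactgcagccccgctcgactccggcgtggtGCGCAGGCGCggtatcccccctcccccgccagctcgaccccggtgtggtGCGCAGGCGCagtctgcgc
SDHB: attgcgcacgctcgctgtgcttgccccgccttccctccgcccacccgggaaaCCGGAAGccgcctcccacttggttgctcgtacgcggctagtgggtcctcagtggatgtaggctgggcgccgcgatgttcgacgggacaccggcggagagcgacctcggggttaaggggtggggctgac
COX8A: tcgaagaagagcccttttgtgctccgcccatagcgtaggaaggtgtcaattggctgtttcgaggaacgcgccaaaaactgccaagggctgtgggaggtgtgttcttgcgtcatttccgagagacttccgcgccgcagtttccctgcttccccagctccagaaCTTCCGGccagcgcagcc
ATP5C1: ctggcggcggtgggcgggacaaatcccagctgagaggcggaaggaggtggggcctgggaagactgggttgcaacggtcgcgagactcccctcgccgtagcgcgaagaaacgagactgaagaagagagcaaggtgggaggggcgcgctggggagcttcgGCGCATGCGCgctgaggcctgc
ATP5H: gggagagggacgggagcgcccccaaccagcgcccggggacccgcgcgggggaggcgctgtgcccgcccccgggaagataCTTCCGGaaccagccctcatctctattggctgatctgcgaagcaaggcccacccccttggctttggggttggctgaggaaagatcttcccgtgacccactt

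SDHA held 4 copies of the NRF1 palindrome, whose first bases lay at positions -166, -117, -68 and -19 counted from the RefSeq start and so were spaced 49 bases apart. The gene bounds in the deposited data start further upstream, at 218223 for SDHA, 17054170 for SDHB and 7788104 for ATP5C1. The SDHA copies at -68 and -19, the SDHB core and the ATP5C1 copy lay inside those bounds. The COX8A core ran across its bound at 63974607. ATP5C1 held 1 copy, at -22. The ETS core stood at -128 in SDHB, at -101 in ATP5H and at -18 in COX8A. Over the whole 300-base window, 9 of 32 members (28.1%) held the NRF1 palindrome, against 15.5% of the 13667 genes of the table with a window. The ETS core was found in 14 of 32 members (43.8%), against 18.5%. The YY1 core AAGATGGCG was found in 3 members (9.38%, against 3.68%), and the TATA box TATAAA also in 3 (9.38%, against 10.7%). These letter matches are a description and no test was made of them.

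The genes of complexes II to V were among the more abundant transcripts of LX-2 cells. A gene was tested if it reached 1 FPKM in at least 3 libraries, which 43 members and 11808 genes in all did. The median of the members' mean FPKM was 77.8, against 12.7 for all genes tested. Of the 43, 39 lay above the median gene, and their median percentile was 92.5. Per complex the median level was 49.1 FPKM for complex II, 50.8 for complex III, 112 for complex IV and 84.0 for complex V. The members were also short: their median transcript length was 1224 bases against 3219 for all genes tested, and 40 of 43 were shorter than the median gene. By complex, the median length was 2157 bases for II, 1335 for III, 645 for IV and 1174 for V.

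**Figure D1:**
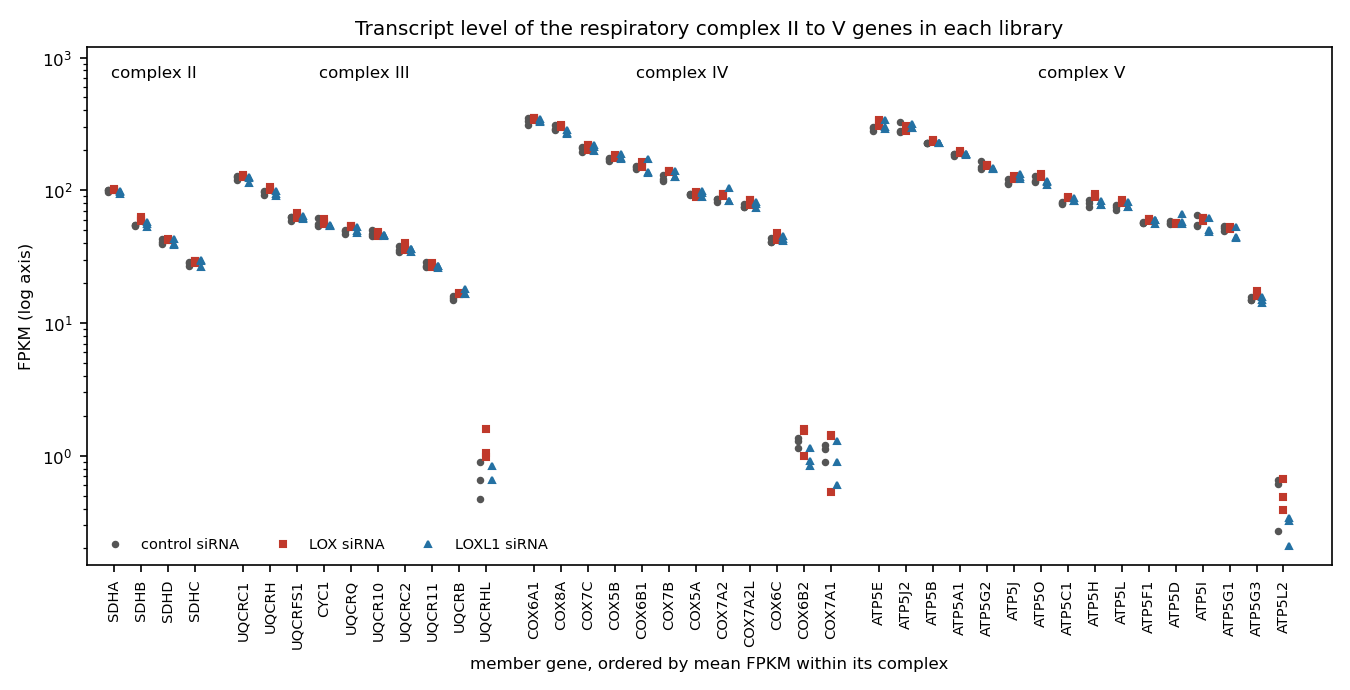
FPKM of each subunit gene (log axis) in the 9 libraries, by complex and ordered by mean level; circles are control, squares LOX siRNA and triangles LOXL1 siRNA. Complex IV spans mean levels from COX7A1 at 1.04 FPKM to COX6A1 at 337 and complex V from ATP5L2 at 0.44 to ATP5E at 308, and the value of 0 for UQCRHL in 1 LOXL1 library cannot be drawn.

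Within complex II, SDHA, the flavoprotein that binds succinate, had the highest level (mean over 9 libraries 99.0 FPKM). SDHB, the iron-sulfur subunit, followed at 56.8 FPKM, and the membrane anchors SDHD and SDHC stood at 41.4 and 28.5 FPKM. The order SDHA, SDHB, SDHD, SDHC held in each of the 9 libraries without overlap: SDHA spanned 93.68 to 101.49, SDHB 53.15 to 62.65, SDHD 38.96 to 43.05 and SDHC 26.53 to 29.85 FPKM. In complex III the highest level belonged to UQCRC1, a core protein, at 124 FPKM (range 112.78 to 129.31). The lowest tested member was UQCRB, a small subunit near the ubiquinone site, at 16.4 FPKM (14.97 to 18.00). Between them stood UQCRH, the hinge protein, at 97.7 FPKM, UQCRFS1, the Rieske iron-sulfur protein, at 62.7, CYC1, the cytochrome c1 that hands on the electrons, at 56.3, and UQCRC2, the other core protein, at 36.5. The small subunits UQCRQ, UQCR10 and UQCR11 stood at 50.8, 46.6 and 27.1 FPKM. The ranges of CYC1 and UQCRFS1 overlapped, so these neighbours in the order were not separated by their spread. The longest listed transcript of UQCRB was 4956 bases, against 771 for UQCRH. The length used for FPKM is not given, so the order of levels between genes, in this and the other complexes, may depend on it.

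In complex IV, where nuclear genes supply the subunits around a mitochondrially encoded core, COX6A1 (337 FPKM, 309.10 to 350.44) and COX8A (291 FPKM, 265.34 to 312.73) were the highest and overlapped in range. COX7C, COX5B, COX6B1 and COX7B had mean levels of 209, 177, 151 and 131 FPKM. COX5A, which binds at the matrix side, stood at 93.9 FPKM, COX7A2 at 88.9 and COX6C at 43.3. COX7A2L, which takes part in joining complexes III and IV into supercomplexes, stood at 78.8 FPKM. Isoforms known from other tissues were low, and COX7A1 and COX6B2 stood near the filter of 1 FPKM. COX7A1, the heart and muscle form, ranged from 0.53 to 1.43 FPKM, and COX6B2, the testis form, from 0.83 to 1.59. COX7A2 made up 98.5% to 99.4% of the summed FPKM of the COX7A pair, and COX6B1 made up 99.0% to 99.5% of the COX6B pair. COX4I1, which lies outside the symbol rule, made up 99.9% to 100% of the summed FPKM with COX4I2.

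In complex V the catalytic head and its central shaft were led by ATP5E, the epsilon subunit of the shaft, at 308 FPKM (279.41 to 337.54). In the head, ATP5B, the catalytic beta subunit, stood at 230.0 FPKM (226.51 to 237.24) and ATP5A1, the alpha subunit, at 188 (179.85 to 196.04). The gamma shaft ATP5C1 and the delta subunit ATP5D stood lower, at 84.0 and 57.8 FPKM. The peripheral stalk, which holds the head still, comprised ATP5J (122 FPKM), ATP5O (121), ATP5H (83.4) and ATP5F1 (58.6). Of the membrane subunits, ATP5J2 (296 FPKM) far exceeded ATP5L (77.8) and ATP5I (57.5), although part of its signal cannot be told from the overlapping readthrough. The c ring that turns with the proton flow is encoded by 3 genes for the same mature protein. ATP5G2 made up 68.2% to 71.5% of their summed FPKM, ATP5G1 21.6% to 24.5% and ATP5G3 6.34% to 7.76%. FPKM divides by transcript length, and the longest listed transcript was 2117 bases for ATP5G2, 646 for ATP5G1 and 3293 for ATP5G3. The length used for FPKM is not given, so the order of these shares may depend on it. Mean shares of ATP5G2 were 69.6% ± 1.19 in control, 69.1% ± 0.355 with LOX siRNA and 70.2% ± 1.79 with LOXL1 siRNA (SD, n = 3), and the groups overlapped.

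Of the 45 members, 2 did not pass the filter. UQCRHL, a near-identical copy of UQCRH, ranged from 0 to 1.59 FPKM, and ATP5L2, a near-identical copy of ATP5L, from 0.21 to 0.67. Reads that fit both copies may have been split between them, so these values are uncertain. The matches that are not subunits were low or moderate: ATP5SL 39.68 to 44.68, ATP5S 5.96 to 6.77 and ATP5J2-PTCD1 1.38 to 6.19 FPKM.

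The first comparison asked how the partial knockdown of LOX touched these genes. After LOX siRNA 38 of the 43 tested members had a mean above control, and no single member passed the test. Among the 40 tested subunit genes the highest log2 difference was 0.19, for ATP5H. The highest of all members was that of the readthrough ATP5J2-PTCD1, which measured 1.38, 2.64 and 6.11 FPKM in control and 6.19, 3.81 and 4.09 with LOX siRNA. These low values overlapped (log2 fold change 0.51, SE 0.32, limma adjusted p = 0.752). The median difference was 0.068 on the log2(FPKM + 1) scale, against 0.0035 for all genes tested, of which 52.2% lay above 0. The median was 0.045 for complex II, 0.064 for III, 0.068 for IV and 0.079 for V, with 4 of 4, 8 of 9, 12 of 12 and 13 of 15 genes above 0. When control replicate 2 was left out the median of complex II was 0.025, and when LOX siRNA replicate 1 was left out that of complex III was 0.042. The number past a limma p adjusted over all genes of 0.05 was 0 in each direction, against 0% of all genes higher and 0.00847% lower, the latter being LOX itself. Of the members, 13 had an unadjusted limma p under 0.05 with a higher mean, against 4.37% of all genes, and 0 had one with a lower mean, against 2.56%. For 15 members every LOX siRNA library lay above every control library, against 6.78% of all genes, and for 0 every one lay below, against 5.97%. That count of 13 was 10 with limma without its mean-variance trend, 5 when control replicate 1 was left out, and 8 when either replicate 1 or replicate 2 of LOX siRNA was. These alternative counts take both directions together. Such a p held for 786 of 11808, 561 of 11783, 677 of 11787 and 554 of 11788 genes in turn. Because FPKM is a share of a library, fewer cells of a kind and less RNA per cell cannot be told apart in any of these comparisons.

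**Figure D2:**
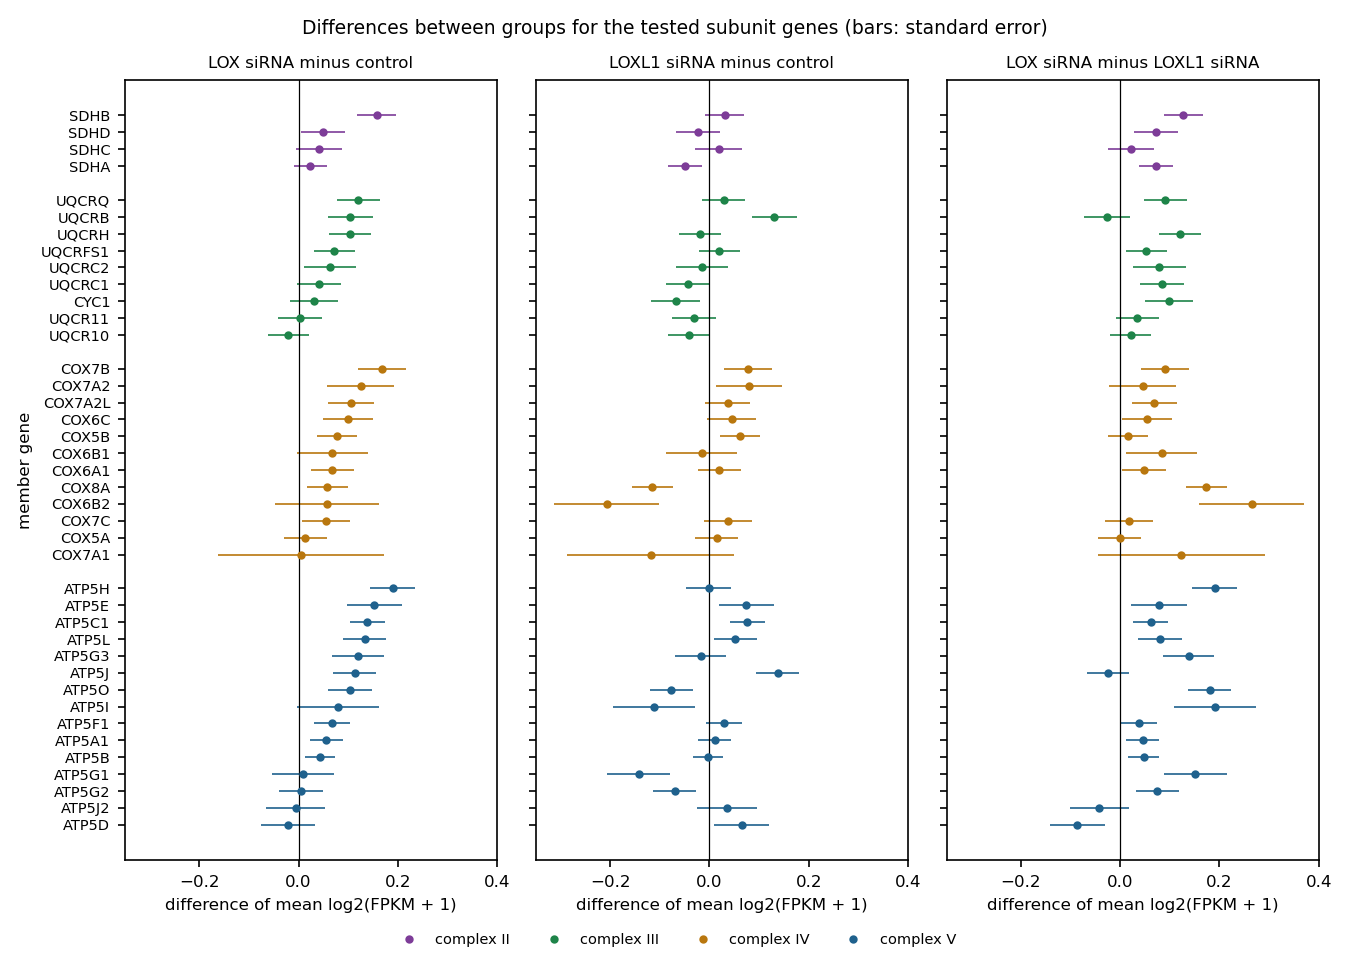
Difference of mean log2(FPKM + 1) for the 40 tested subunit genes in each comparison (points, with bars of 1 standard error from limma), ordered within each complex by the first panel. In the first panel 37 of the 40 points lie above 0, while in the middle panel they lie on both sides.

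In complex II the smallest p belonged to SDHB (chromosome 1, 17018722 to 17054170, minus strand). It measured 54.37, 54.07 and 54.39 FPKM in control, 58.89, 60.49 and 62.65 with LOX siRNA, and 55.39, 53.15 and 57.95 with LOXL1 siRNA. The control libraries were nearly alike and every LOX siRNA library lay above all 6 others. Against control the mean was 11.8% higher (log2 fold change 0.16, SE 0.04, limma adjusted p = 0.532). SDHA measured 97.07, 100.41 and 101.20 FPKM in control and 100.82, 101.29 and 101.49 with LOX siRNA, ranges that overlapped (log2 fold change 0.02, SE 0.03, limma adjusted p = 0.920). The anchors also overlapped. SDHC averaged 28.1 ± 0.936 in control and 29 ± 0.436 FPKM with LOX siRNA, and SDHD 41.1 ± 1.68 and 42.6 ± 0.395. The 4 SDH genes together summed to 221.1 to 226.9 FPKM in control, 230.4 to 235.8 with LOX siRNA and 216.0 to 228.9 with LOXL1 siRNA, so the LOX siRNA libraries lay above the rest. The sums of the other complexes overlapped between control and LOX siRNA. They were 493.6 to 530.3 and 525.9 to 545.8 FPKM for complex III and 1526.7 to 1632.3 and 1621.5 to 1688.2 for IV. For complex V they were 1800.9 to 1930.3 and 1921.3 to 1998.0 FPKM.

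In complex III the smallest p values belonged to 2 small subunits. UQCRQ, which contacts the ubiquinone-binding cytochrome b, measured 46.94, 50.37 and 49.67 FPKM in control and 53.47, 53.02 and 53.47 with LOX siRNA (log2 fold change 0.12, SE 0.04, limma adjusted p = 0.658). UQCRH, which helps cytochrome c1 meet cytochrome c, measured 91.34, 99.33 and 96.53 FPKM in control and 105.15, 102.63 and 100.69 with LOX siRNA (log2 fold change 0.10, SE 0.04, limma adjusted p = 0.704). For both genes the groups did not overlap. The larger subunits UQCRC1, UQCRC2, UQCRFS1 and CYC1 overlapped between the groups, with differences of 2.07% to 5.22% in mean FPKM.

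In complex IV the smallest p belonged to COX7B, an X-linked small subunit. It measured 118.30, 131.04 and 121.12 FPKM in control and 138.68, 137.42 and 140.16 with LOX siRNA, without overlap (log2 fold change 0.17, SE 0.05, limma adjusted p = 0.569). COX7A2L measured 78.95, 74.20 and 75.26 FPKM in control and 77.83, 84.53 and 83.72 with LOX siRNA, where the lowest treated library fell within the control range (log2 fold change 0.11, SE 0.05, limma adjusted p = 0.706). COX6A1 averaged 330.0 ± 20.2 and 346 ± 6.77 FPKM, and COX7A1 1.08 ± 0.157 and 1.13 ± 0.517. Both overlapped.

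Complex V, with 15 of the 43 tested members, held 7 of the 13 with an unadjusted limma p under 0.05 and a higher mean. Of all genes, 4.37% met this rule. The 7 code for parts of the central shaft, the peripheral stalk, the membrane part and the c ring. With length and GC trends removed, 3 of the 15 had an unadjusted p under 0.05. ATP5H, the d subunit of the stalk (chromosome 17, 75038860 to 75046979, minus strand), measured 74.70, 80.61 and 83.82 FPKM in control and 90.70, 93.66 and 88.56 with LOX siRNA. With LOXL1 siRNA it measured 82.78, 77.89 and 78.08 FPKM. The LOX siRNA libraries lay above all others, and the mean was 14.1% above control (log2 fold change 0.19, SE 0.05, limma adjusted p = 0.478, the smallest of any member in this comparison). ATP5C1, the shaft (chromosome 10, 7788104 to 7807801, plus strand), measured 78.34, 79.91 and 81.10 FPKM in control and 87.01, 89.39 and 87.31 with LOX siRNA. These groups did not overlap (log2 fold change 0.14, SE 0.04, limma adjusted p = 0.532). ATP5E averaged 291 ± 11.2 in control and 324 ± 17.5 FPKM with LOX siRNA, and ATP5G3 15.1 ± 0.489 and 16.5 ± 0.782. ATP5G1, ATP5G2, ATP5D and ATP5J2 differed from control by -1.52% to 0.554% in mean FPKM.

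**Figure D3:**
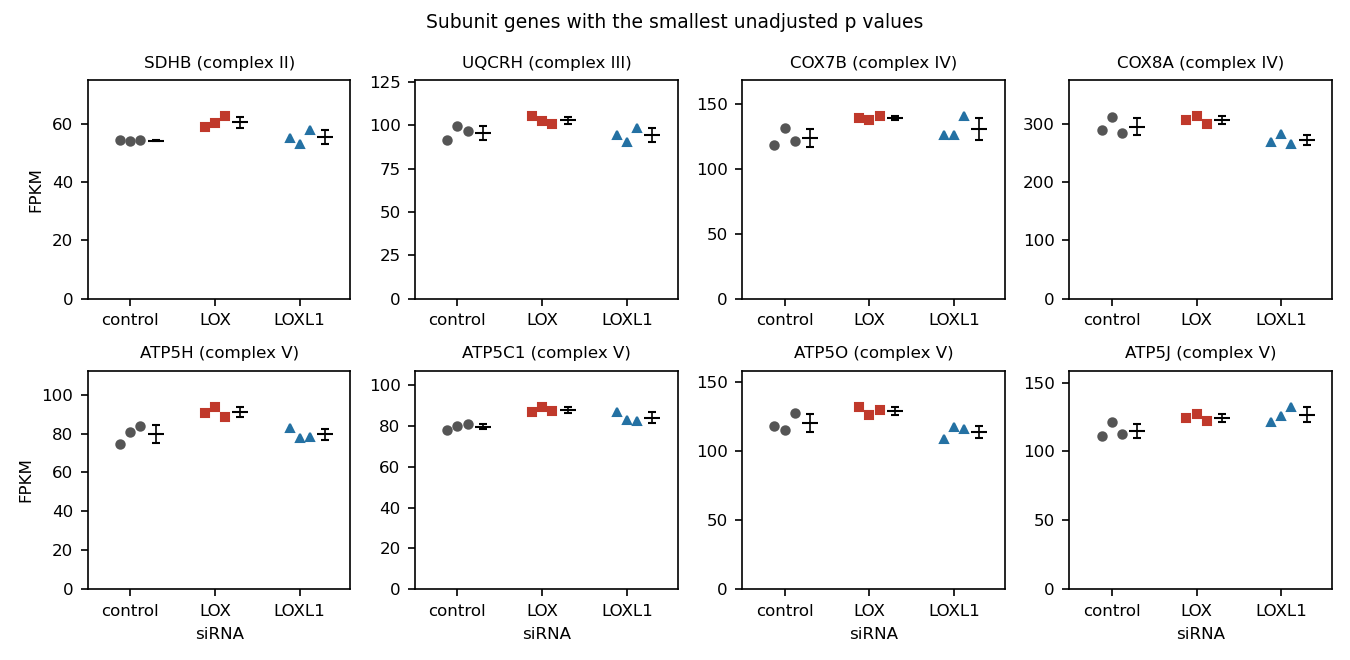
FPKM of 8 subunit genes in each of the 9 libraries (symbols), with group mean and SD (bars, n = 3), on axes that start at 0. SDHB and ATP5H lie higher in all 3 LOX siRNA libraries than in the other 6, COX8A is lowest in the LOXL1 siRNA libraries, and ATP5J is above control with both siRNAs.

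Transcript length moved with this pattern across all genes. When the tested genes were divided into 5 classes of length, the shortest class (339 to 1857 bases, 2362 genes, 33 members) had a median difference of 0.043 between LOX siRNA and control, and 71.5% of its genes lay above 0. The longest class had a median of -0.030 and 28.1% above 0. The 33 members in the shortest class had a median of 0.068. In each library, Spearman's rho of a gene's deviation from its 9-library mean with its length was -0.285, -0.279 and -0.249 in the LOX siRNA libraries, 0.376, -0.166 and 0.138 in control, and 0.308, 0.197 and -0.049 with LOXL1 siRNA. Control replicate 2 also had a rho of 0.70 with GC content. With the trends of length and GC removed from each library, the members' median was 0.033 with 32 of 43 above 0, against 0.0060 and 54.4% for all genes, and the medians of complexes II to V were 0.031, 0.028, 0.034 and 0.050. Of the members, 6 then had an unadjusted limma p under 0.05 in either direction, against 718 of 11639 genes. ATP5H was then 0.13, SDHB 0.11, COX7B 0.10 and ATP5C1 0.08 on the log2 scale. Across the 40 subunit genes, which share libraries and are mostly short, rho between the LOX siRNA difference and length was -0.11. What part length has in the difference was not tested beyond these values.

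**Figure D4:**
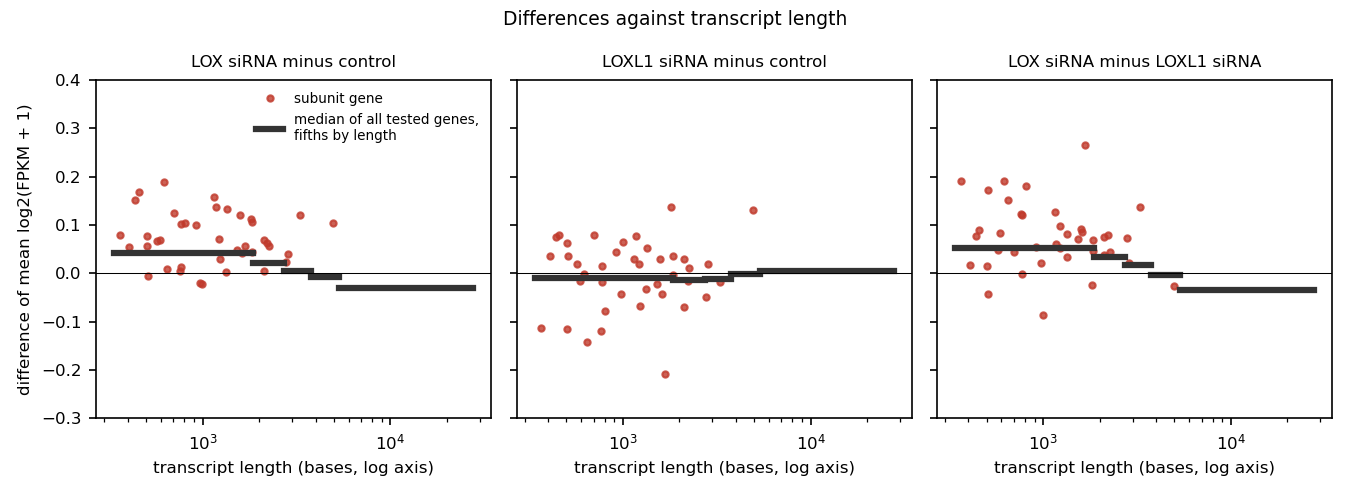
Difference of mean log2(FPKM + 1) for each tested subunit gene (points) against transcript length (log axis), with the median of all tested genes in 5 classes of length (bars). In the first and last panels the bars step down from 0.043 and 0.052 in the shortest class to -0.030 and -0.035 in the longest; in the middle panel they stay between -0.013 and 0.005.

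The second comparison asked the same of LOXL1. After LOXL1 siRNA the complexes showed no common direction: 22 of 43 members had a mean above control, against 46.7% of all genes, and the median difference was 0.011, against -0.0058. By complex the medians were -0.0018, -0.018, 0.028 and 0.011 for II to V, and none kept its size when single libraries were left out. The median ranged from -0.038 (LOXL1 siRNA replicate 3 left out) to 0.028 (LOXL1 siRNA replicate 2) for complex II and from -0.051 (control replicate 1) to 0.0049 (LOXL1 siRNA replicate 1) for complex III. It ranged from 0.0033 (control replicate 1) to 0.065 (LOXL1 siRNA replicate 1) for complex IV and from -0.0081 (control replicate 1) to 0.026 (control replicate 3) for complex V. The number past the adjusted threshold was 0 in each direction, against 0.0169% of all genes higher and 0.0593% lower. With an unadjusted limma p under 0.05 there were 3 members higher, ATP5C1, ATP5J and UQCRB, against 3.82% of all genes, and 2 lower, ATP5G1 and COX8A, against 6.41%. The groups did not overlap for 3 members that lay higher, against 5.74%, and for 2 that lay lower, COX8A and COX6B2, against 8.57%. Limma without its mean-variance trend gave 3 members with an unadjusted p under 0.05 in either direction, and the count was also 3 without control replicate 1, LOX siRNA replicate 1, LOX siRNA replicate 3 or LOXL1 siRNA replicate 1. Such a p held for 1178 of 11808, 1120 of 11783, 1061 of 11787, 1127 of 11784 and 903 of 11791 genes in turn. The median over all members was -0.021 when control replicate 1 was left out, 0.025 for control replicate 3, 0.0068 for LOXL1 siRNA replicate 1 and -0.013 for LOXL1 siRNA replicate 3. The comparison shares its control libraries with the first one.

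ATP5J, coupling factor 6 of the peripheral stalk (chromosome 21, 25724480 to 25735654, minus strand), measured 111.08, 121.02 and 112.85 FPKM in control and 121.55, 125.86 and 132.28 with LOXL1 siRNA. The lowest knockdown library was just above the highest control library (log2 fold change 0.14, SE 0.04, limma adjusted p = 0.282, the smallest of any member here). UQCRB averaged 15.5 ± 0.507 FPKM in control, 16.7 ± 0.235 with LOX siRNA and 17.0 ± 0.850 with LOXL1 siRNA (log2 fold change for LOXL1 siRNA 0.13, SE 0.05, limma adjusted p = 0.352). Its groups did not overlap. ATP5C1 averaged 79.8 ± 1.38 FPKM in control and 84.2 ± 2.61 with LOXL1 siRNA, also without overlap (log2 fold change 0.08).

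COX8A, a small membrane-spanning subunit of complex IV (chromosome 11, 63974607 to 63976543, plus strand), measured 288.76, 311.32 and 284.36 FPKM in control and 268.37, 282.05 and 265.34 with LOXL1 siRNA. All 3 knockdown libraries lay below all controls (log2 fold change -0.12, SE 0.04, limma adjusted p = 0.361). ATP5G1 measured 49.45, 54.12 and 51.69 FPKM in control and 43.54, 44.18 and 53.14 with LOXL1 siRNA, so replicate 3 lay apart from the other LOXL1 siRNA libraries and inside the control range (log2 fold change -0.14, SE 0.06, limma adjusted p = 0.471). COX6B2 measured 1.36, 1.28 and 1.15 FPKM in control and 0.83, 1.14 and 0.92 with LOXL1 siRNA, near the filter (log2 fold change -0.21, SE 0.11, limma adjusted p = 0.522). CYC1 averaged 56.8 ± 4.10 FPKM in control and 54.0 ± 0.352 with LOXL1 siRNA and overlapped. The SDH genes differed from control by -3.37% to 2.25% in mean FPKM, and all 4 overlapped.

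The third comparison set the knockdowns against each other. Here 37 of 43 members had a higher mean with LOX siRNA than with LOXL1 siRNA, against 55.7% of all genes, with a median difference of 0.072 against 0.011. The medians were 0.072, 0.079, 0.062 and 0.075 for complexes II to V. With LOXL1 siRNA replicate 1 left out those of complexes III and IV were 0.037 and 0.028. With LOXL1 siRNA replicate 3 left out that of complex IV was 0.12, and with LOX siRNA replicate 2 left out that of complex V was 0.050. Quantile normalization gave 0.035 for complex V. No member passed the adjusted threshold in either direction, against 0.144% of all genes higher and 0.0678% lower. With an unadjusted limma p under 0.05 there were 9 members higher, against 8.25% of all genes, and 0 lower, against 4.56%. For 13 members the LOX siRNA libraries lay above all LOXL1 siRNA libraries, against 12.1%, and for 0 they lay below, against 9.41%. The count of 9 was 7 with limma without its trend, 14 without control replicate 2, 17 without LOXL1 siRNA replicate 3, 5 without LOXL1 siRNA replicate 2 and 4 without LOX siRNA replicate 1. These alternative counts take both directions together. Such a p held for 1469 of 11808, 1974 of 11781, 1684 of 11787, 1263 of 11791 and 1163 of 11787 genes in turn. The shortest length class had a median of 0.052 with 73.9% of genes above 0. With the length and GC trends removed the members' median was 0.039 and 35 of 43 lay above 0, against 0.013 and 57.4% for all genes; complexes II to V had medians of 0.053, 0.034, 0.037 and 0.041.

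The smallest adjusted p values came from complexes IV and V. COX8A measured 306.83, 312.73 and 300.43 FPKM with LOX siRNA against 268.37, 282.05 and 265.34 with LOXL1 siRNA, 12.8% higher in the mean (log2 fold change 0.17, SE 0.04, limma adjusted p = 0.109). Without control replicate 2 its adjusted p was 0.0429, and the alternatives ranged from 0.0429 to 0.373. ATP5H averaged 91.0 ± 2.56 and 79.6 ± 2.77 FPKM (log2 fold change 0.19, SE 0.05, limma adjusted p = 0.109), and its LOXL1 siRNA mean differed from that of control by -0.159%. ATP5O, the OSCP subunit that joins stalk and head (chromosome 21, 33903453 to 33915854, minus strand), measured 131.66, 125.98 and 129.52 FPKM against 108.75, 117.00 and 115.73 (log2 fold change 0.18, SE 0.04, limma adjusted p = 0.111). None of these groups overlapped. ATP5G1 passed only without LOXL1 siRNA replicate 3, at an adjusted p of 0.0434.

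In complex III, UQCRH averaged 103 ± 2.24 FPKM with LOX siRNA and 94.5 ± 4.15 with LOXL1 siRNA (log2 fold change 0.12, SE 0.04, limma adjusted p = 0.267), and UQCRQ 53.3 ± 0.260 and 50 ± 2.67 (log2 fold change 0.09, SE 0.04, limma adjusted p = 0.396). In complex II, SDHB (log2 fold change 0.13, SE 0.04, limma adjusted p = 0.219) and SDHA (0.07, SE 0.03, limma adjusted p = 0.391) did not overlap between the knockdowns, while SDHC and SDHD did. ATP5D, the delta subunit, lay the other way at 56.3 ± 0.896 FPKM with LOX siRNA and 60.0 ± 5.71 with LOXL1 siRNA, of which 1 library, at 66.44 FPKM, was apart from the rest. With length and GC trends removed, the smallest limma adjusted p of any member between the knockdowns was that of ATP5D, at 0.13.

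Levels of the members also varied from library to library within a group. The median deviation of the 43 members from their 9-library means was 0.044, 0.058 and 0.036 in the LOX siRNA libraries, -0.057, -0.0011 and -0.016 in control and -0.062, -0.039 and 0.022 with LOXL1 siRNA. LOXL1 siRNA replicate 3 was thus on the side of the LOX siRNA libraries. It was the highest of its group for 27 of 43 members, and replicate 1 the lowest for 26. In control, replicate 1 was the lowest for 27 members and replicate 2 the highest for 24. The LOX siRNA libraries were the most alike, with a median coefficient of variation of 2.28% over the members, against 4.01% in control and 4.39% with LOXL1 siRNA; over all genes tested it was 3.77%, 5.50% and 4.38%. With length and GC trends removed, the members' median deviation was 0.031, 0.029 and 0.025 with LOX siRNA, -0.019, 0.0006 and -0.0022 in control and -0.032, -0.025 and 0.0093 with LOXL1 siRNA.

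**Figure D5:**
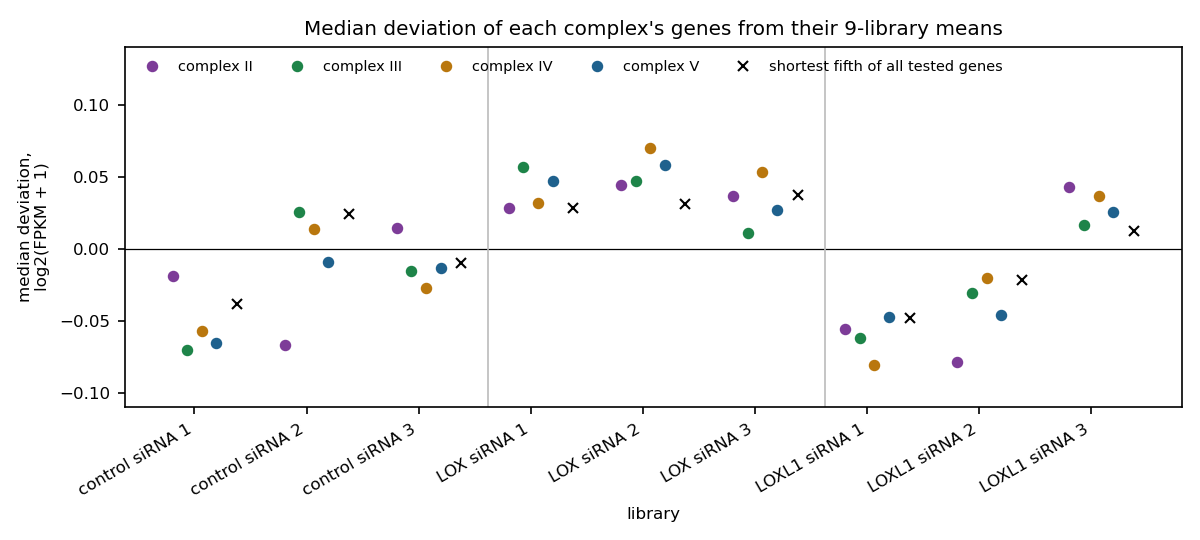
Median deviation of each complex's genes from their 9-library means (coloured circles, log2(FPKM + 1) scale) in each library, with the same for the shortest of the 5 length classes of all tested genes (crosses). All 4 complexes lie above 0 in the 3 LOX siRNA libraries and in LOXL1 siRNA replicate 3, and the crosses lie on the same side in these libraries.

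Related genes outside the symbol rule were read from lists. Of the 37 nuclear subunits of complex I, the NADH dehydrogenase that feeds the chain, 33 lay above control with LOX siRNA (median 0.081), 18 with LOXL1 siRNA, and 28 were higher with LOX than with LOXL1 siRNA. Of all genes 52.2%, 46.7% and 55.7% did so in turn, shares that also stand beside the lists below. An unadjusted limma p under 0.05 held for 6 higher and 0 lower, 2 and 3, and 13 and 0 of the 37 in the same order. Of these subunits 1 passed the adjusted threshold. NDUFAB1, a complex I subunit that is also the mitochondrial acyl carrier protein, measured 38.33, 35.37 and 37.11 FPKM in control, 40.78, 41.50 and 40.10 with LOX siRNA and 33.69, 34.53 and 34.42 with LOXL1 siRNA. It was higher with LOX than with LOXL1 siRNA (log2 fold change 0.25, SE 0.04, limma adjusted p = 0.0278), a call lost in 10 of the 17 alternatives, whose adjusted p ranged from 0.00952 to 0.157. It was lost without any 1 of the LOX siRNA replicates (0.110, 0.157 and 0.121) and without LOXL1 siRNA replicate 1 (0.136) or 2 (0.0830). In the other lists 0 genes passed in any comparison by limma, and the number with an unadjusted p under 0.05 was 0 to 6 per list and comparison. Over all genes these shares were 4.37% higher and 2.56% lower for LOX siRNA against control, 3.82% and 6.41% for LOXL1 siRNA against control, and 8.25% and 4.56% between the knockdowns.

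Among assembly factors, 4 of 4 for complex II, 5 of 6 for complex III, 19 of 24 for complex IV and 2 of 3 for complex V lay above control with LOX siRNA; 1, 0, 2 and 0 of them had an unadjusted p under 0.05 with a higher mean, against 4.37% of all genes. SURF1, an assembly factor of complex IV, averaged 13.7 ± 0.645 FPKM in control, 16.5 ± 1.59 with LOX siRNA and 13.5 ± 0.646 with LOXL1 siRNA (LOX against LOXL1 siRNA, log2 fold change 0.27, SE 0.06, limma adjusted p = 0.109). SDHAF4, an assembly factor of complex II, averaged 3.25 ± 0.168, 3.93 ± 0.284 and 3.76 ± 0.271 FPKM in the same order. UQCC1, for complex III, averaged 29.9 ± 0.263 with LOX siRNA and 27.9 ± 1.73 with LOXL1 siRNA, and TMEM70, for complex V, 7.19 ± 0.711 and 6.33 ± 0.446. Of 6 tested subunits and partners that the rule left out, such as COX4I1 and cytochrome c, 6 lay above control with LOX siRNA and 5 with LOXL1 siRNA. C14orf2, a small ATP synthase subunit, averaged 49.4 ± 3.67 FPKM in control and 56.5 ± 8.09 with LOXL1 siRNA.

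The 12 tested regulators of respiratory gene transcription, NRF1 and GABPA among them, had 6 genes above control with LOX siRNA (median 0.0091) and 4 with LOXL1 siRNA (median -0.043). TFB2M, a mitochondrial transcription factor, averaged 6.48 ± 1.01, 7.06 ± 0.216 and 6.05 ± 0.532 FPKM in control, LOX and LOXL1 siRNA. Of 14 TCA cycle enzymes 9 lay above control with LOX siRNA (median 0.010) and 7 with LOXL1 siRNA (median -0.0029). Of 7 adenine nucleotide and phosphate carriers and outer membrane channels, 6 lay above control with LOX siRNA, and VDAC1, the main channel, averaged 136 ± 2.51 in control and 146 ± 3.33 FPKM. Of 19 import channel genes 16 lay above control with LOX siRNA (median 0.054) and 14 with LOXL1 siRNA (median 0.048). TIMM8B, a small import chaperone, averaged 13.6 ± 2.19, 16.9 ± 1.93 and 15 ± 0.662 FPKM.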

How the data were processed

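RNA from 9 LX-2 libraries was sequenced on a BGISEQ instrument, per the labels' protocols. The authors deposited 1 table of FPKM values, per the file headers. TopHat2 2.0.10 and hg19 are named in the submitters' processing notes; how FPKM was computed is not given in the sources used. Gene positions were read as GRCh38, because 91.4% of the 17086 gene IDs matched to GRCh38.p14 had starts within 5000 bases. Without counts in the table, counting error is unknown; the FPKM of apparent single fragments times length had a median of 57.8 to 59.15 per library.

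Values were analysed as log2(FPKM + 1), pseudocount 1, for the 11808 genes at 1 FPKM or more in at least 3 libraries. Fold changes are differences on that scale, which understates those of low genes. One limma 3.58.1 model (R 4.3.3, empirical Bayes with trend, 6 residual degrees of freedom) covered all 9 libraries, and p-values were adjusted by Benjamini-Hochberg over all genes tested, threshold 0.05, two-sided. It was tested on simulated data.

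Members and lists were chosen with earlier results of these data known. Named genes were the SDH genes, the 2 smallest p values per comparison in complexes III to V, the highest and lowest level per complex, and 1 gene per other list, of which 1 is not reported here; further genes were named after their values were seen. The 17 alternatives per comparison were median-ratio scaling, quantile normalization, a pseudocount of 0.1, no filter, compared groups alone, no trend, a replicate block, removal of length and GC trends (natural splines, 4 degrees of freedom, 98.6% of tested genes) and each library left out.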

Additional observations from a re-analysis of the deposited data

How the results depend on the processing

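With each alternative 0 members passed the threshold for LOX siRNA against control and for LOXL1 siRNA against control. For LOX against LOXL1 siRNA the number was 0 to 1 with a library left out: COX8A passed without control replicate 2 and ATP5G1 without LOXL1 siRNA replicate 3. Removal of length and GC trends moved the members' median from 0.0679 to 0.0333 for LOX siRNA against control and from 0.0717 to 0.0393 between the knockdowns, and turned SDHD for LOX siRNA against control to -0.0022; the cause was not tested. The members' median for LOXL1 siRNA against control was 0.0204 with median-ratio scaling, 0.0025 with quantile normalization, -0.0012 without a filter and -0.0033 with length and GC trends removed. With 1 library left out, the median for LOXL1 siRNA against control ranged from -0.0214 to 0.0245, that for LOX siRNA against control from 0.0485 to 0.0869 and that between the knockdowns from 0.0484 to 0.0924. Under the same omissions the log2 fold change for LOXL1 siRNA against control ranged from -0.0005 to 0.0608 for SDHB, from -0.0132 to 0.0689 for SDHC and from -0.0660 to 0.0066 for SDHD, and that of SDHC between the knockdowns from -0.0280 to 0.0541. The replicate numbers showed no sign of pairing the samples. Same-numbered libraries of different groups had correlations of -0.068 to 0.025, and unlike-numbered ones of -0.076 to 0.082. With the number as a replicate block 0 members passed by limma in each comparison, with smallest adjusted p values of 0.567, 0.314 and 0.1. The FPKM table gives no read counts, so small differences rest on 3 libraries a group.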
